A study of Mus musculus with 12 samples.

Results

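Squamous cell carcinomas (SCC) of the skin of TAp63 knockout mice were compared with skin of mice of the same genotype, over every miRNA row of the deposited table. The comparison rests on 7 of the 12 small RNA libraries of the series, chosen by the genotype and tissue in their labels: 4 of knockout SCC and 3 of knockout skin. All 7 samples are labelled TAp63-/- and C57Bl6, so both groups lack TAp63. This is the p63 isoform with the full transactivation domain, and p63 is a relative of p53. Skin was dorsal skin of untreated mice aged 4 weeks. SCC came from mice older than 35 weeks under chronic ultraviolet radiation (UVR) at 2.5 kJ per square metre, 3 times a week. Tumour state, UVR and age therefore differ together between the groups, and their effects cannot be told apart. The other 5 libraries, 3 of wild-type skin and 2 of wild-type SCC with the same ages and treatments, share the estimate of spread and give the wild-type tumour change. A miRNA table holds no Trp63 transcript, so the genotype could not be checked in it.

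miRNAs are short RNAs cut from hairpin precursors. The mature strand guides Argonaute proteins to messenger RNAs through its seed, bases 2 to 8 from the 5′ end, and represses them. Either arm of a hairpin, named 5p or 3p, can be used. Many miRNAs are transcribed together as clusters or from introns of host genes. In skin, miR-203 restrains the stem cell state of keratinocytes, miR-205 marks basal keratinocytes, and miR-21 and miR-31 are known to be high in wounds and squamous tumours.

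The mature sequences below are those on which the results turn. They were taken from the RefSeq annotation of GRCm38.p6, in which 445 of the 544 tested miRNAs were matched by name, and capitals mark the seed. The first set holds the large increases of squamous tumour miRNAs.
miR-21a-5p: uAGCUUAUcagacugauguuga
miR-31-5p: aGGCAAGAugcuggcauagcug
miR-205-5p: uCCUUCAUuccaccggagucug
miR-210-3p: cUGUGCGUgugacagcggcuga
The second set shows 2 seeds shared by paralogous clusters that rose.
miR-17-5p: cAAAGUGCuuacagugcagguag
miR-20a-5p: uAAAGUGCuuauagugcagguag
miR-93-5p: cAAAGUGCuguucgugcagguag
miR-106b-5p: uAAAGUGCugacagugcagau
miR-92a-3p: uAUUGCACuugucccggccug
miR-25-3p: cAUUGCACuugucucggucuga
The third set holds miRNAs with large decreases, among them 2 pairs that share a seed.
miR-206-3p: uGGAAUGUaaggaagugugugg
miR-204-5p: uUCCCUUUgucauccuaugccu
miR-211-5p: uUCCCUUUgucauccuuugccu
miR-100-5p: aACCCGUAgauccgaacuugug
miR-99a-5p: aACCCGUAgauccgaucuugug
miR-338-3p: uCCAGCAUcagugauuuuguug
miR-10b-5p: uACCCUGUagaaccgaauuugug
The last set shows pairs with the same seed whose members moved in opposite directions.
miR-30a-5p: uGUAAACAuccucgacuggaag
miR-30e-5p: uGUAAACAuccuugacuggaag
miR-195a-5p: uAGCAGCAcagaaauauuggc
miR-15b-5p: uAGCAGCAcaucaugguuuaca

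Levels are log2 values that the authors deposited, quantile normalized by their distribution and with a lowest value, or floor, of 3.32 (a linear value of 10). Between 370 and 465 miRNAs were above the floor in a knockout skin library and between 432 and 545 in a knockout SCC library. Read counts are not kept on this scale, so the depth is unknown and counting error cannot be given. Across miRNAs, Pearson's r was 0.974 to 0.989 between knockout skin libraries, 0.956 to 0.965 between knockout SCC libraries, and 0.883 to 0.939 between skin and SCC. The SD of a miRNA was larger in SCC than in skin for 399 of the 544, with a median of 0.54 against 0.30.

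A total of 544 miRNAs exceeded the floor in 2 or more of the 12 libraries and were tested. Of these, 87 (16.0%) were higher and 99 (18.2%) lower in knockout SCC, together 34.2% (limma, Benjamini-Hochberg adjusted p under 0.05). The median change of all tested miRNAs was 0.05 log2 units, and 0.12 after median-ratio scaling. The groups did not overlap for 80 of the 87 and 95 of the 99. Over all 544, the 4 tumours lay above the 3 skin libraries for 97 (17.8%) and below them for 110 (20.2%). The change was at least 2-fold for 78 of the higher and 85 of the lower miRNAs, and at least 8-fold for 12 and 10. Without knockout skin replicate 1, the library with the fewest miRNAs above the floor, 58 were higher and 71 lower. Changes are given below as knockout SCC minus knockout skin in log2 units ± SE, with limma's adjusted p. Counts of list members called are to be read beside the shares of 16.0% higher and 18.2% lower.

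**Figure D1:**
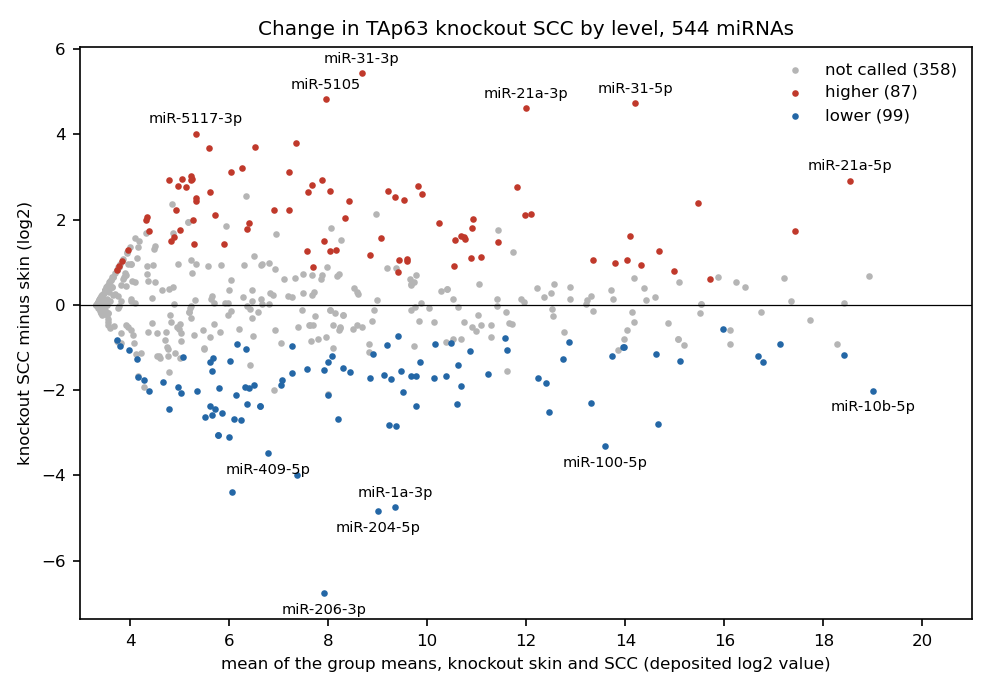
Change in knockout SCC against knockout skin (log2, vertical axis) by the mean of the 2 group means (deposited log2 value, horizontal axis) for 544 miRNAs. Each point is 1 miRNA, coloured by its call: 87 were higher and 99 lower, and both kinds span the range of levels.

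miRNAs known from squamous tumours rose together. Of the 8 tested arms of miR-21a, miR-31, miR-205 and miR-210, all 8 were higher, with a median change of 2.57 against 0.05 over all tested. These miRNAs were put in 1 list with earlier results of these data known. Among the upper 40% of miRNAs by level, both arms of miR-31 and miR-21a-3p held 3 of the 4 largest increases.

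miR-31-5p, which promotes keratinocyte growth in wounds and squamous tumours, was at 9.69, 12.53 and 13.27 in knockout skin and at 14.74, 17.40, 18.00 and 16.09 in SCC replicates 1 to 4. Every tumour lay above every skin library, and skin replicate 1 was the lowest. The change was 4.73 ± 0.87, or 26.5-fold (adjusted p = 0.00204), and 3.66 without skin replicate 1 (adjusted p = 0.00816). The opposite arm, miR-31-3p, was at the floor in skin replicate 1, at 6.38 and 8.18 in the other skin libraries, and between 9.86 and 13.27 in SCC. Its change of 5.44 ± 1.11 was the largest in the upper 40% by level (adjusted p = 0.00363). The hairpin lies on chromosome 4 at 88910557 to 88910662 (GRCm38), in an exon of a long noncoding RNA.

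miR-21a-5p, known for repressing the tumour suppressor PDCD4, was at 16.02, 17.72 and 17.54 in skin and at 20 in all 4 tumours. It was the most abundant miRNA of each knockout tumour, and quantile normalization gives the top rank the same value everywhere. Its change of 2.91 ± 0.37 (adjusted p = 0.000272) is therefore limited from above. The less abundant arm miR-21a-3p is not bound by that limit. It was at 9.67, 10.60 and 8.80 in skin and at 13.99, 14.25, 14.99 and 13.99 in SCC, a change of 4.62 ± 0.57 or 24.6-fold (adjusted p = 0.00023). The miR-21a hairpin overlaps an exon of Vmp1 on chromosome 11.

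miR-205-5p was at 16.78, 16.51 and 16.37 in skin and at 18.49, 17.72, 18.21 and 18.75 in SCC. The groups did not overlap, and the change was 1.74 ± 0.24 (adjusted p = 0.000451). Its other arm, miR-205-3p, rose by 1.55 ± 0.34 (adjusted p = 0.00478). miR-210-3p, which hypoxia-inducible factor induces, was at 10.79 to 10.98 in skin, at 13.70, 13.48 and 13.67 in SCC replicates 1, 3 and 4, and at 11.20 in SCC replicate 2. That tumour lay just above the skin range, and the change was 2.10 ± 0.51 (adjusted p = 0.00877). miR-138-5p rose by 2.59 ± 0.72 (adjusted p = 0.0169) with the same tumour, at 8.74, inside the skin range of 8.39 to 8.90. Its other tumours were at 11.54 to 12.63, and the call ended without skin replicate 1 (adjusted p = 0.0618).

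**Figure D2:**
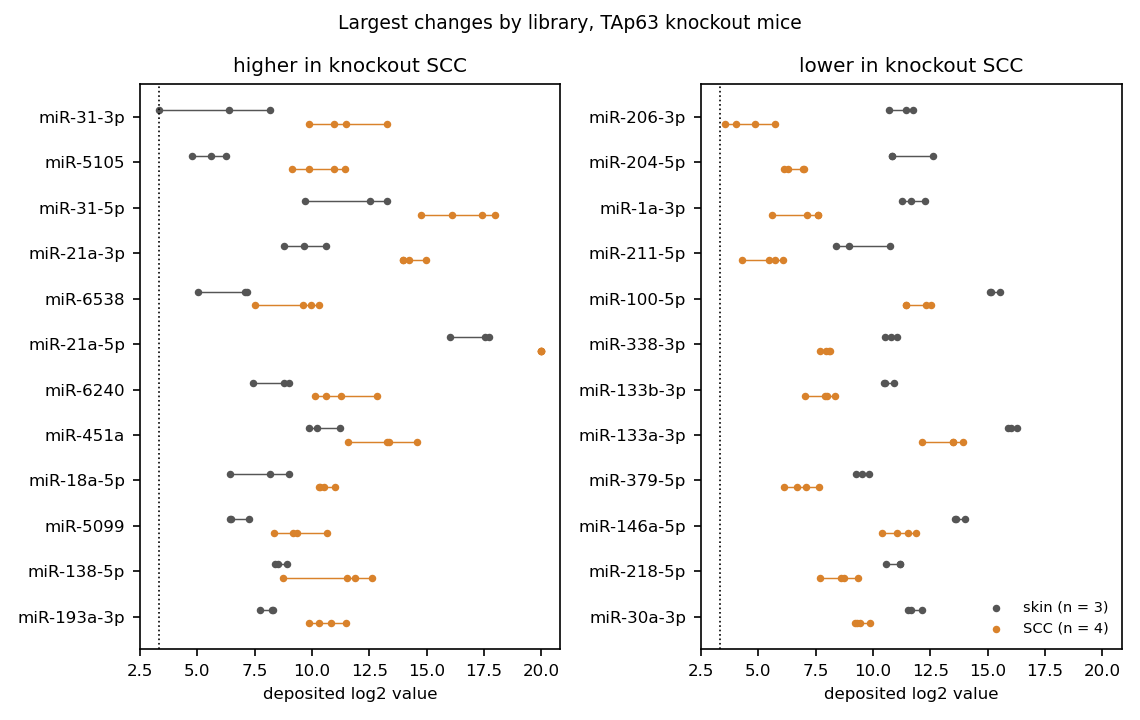
Deposited log2 value (horizontal axis) in each knockout library of the 12 miRNAs with the largest increase (left) and decrease (right) among the upper 40% by level. Points are libraries, lines join the range of a group, and the dotted line is the floor. The groups overlap for miR-138-5p only.

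Arms with a single genomic position rose in 2 of the 3 paralogous miR-17 clusters, which promote cell growth. The mature miR-92a-3p, which also rose, had no single position and could not be assigned to 1 cluster. Among 21 tested arms of the 3, 15 were higher and none lower, with a median of 1.51. Of arms from the X-linked cluster alone, miR-363-3p (-0.59), miR-18b-5p (-0.09) and miR-20b-5p were tested, and none was called. On chromosome 14, from 115043671 to 115044506 within Mir17hg, 7 of 9 tested arms were higher. On chromosome 5, from 138165321 to 138165818, all 6 tested arms of the cluster within Mcm7, the gene of a replicative helicase subunit, were higher.

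miR-93-5p of the Mcm7 cluster was at 13.08, 13.34 and 13.43 in skin and at 14.82, 14.90, 14.90 and 14.99 in SCC. The tumours differed little among themselves, and all lay above the skin libraries (1.62 ± 0.22, adjusted p = 0.000368). miR-20a-5p, of the chromosome 14 cluster, was at 8.86, 9.19 and 9.78 in skin and at 11.15, 10.94, 11.23 and 11.42 in SCC (1.91 ± 0.29, adjusted p = 0.000654). These 2 share the seed AAAGUGC with miR-17-5p (1.80 ± 0.33) and miR-106b-5p (1.53 ± 0.29), and 4 of the 5 tested miRNAs with that seed were higher. The fifth, miR-20b-5p, was at the floor in all 7 knockout libraries. miR-92a-3p and miR-25-3p share the seed AUUGCAC and rose by 2.39 ± 0.38 and 1.27 ± 0.23 (adjusted p = 0.000849 and 0.00185). miR-18a-5p rose by 2.67 ± 0.55 and miR-19a-3p by 2.44 ± 0.52 (adjusted p = 0.00363 and 0.00449).

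Further increases fell outside these lists. Both arms of miR-335, hosted in an intron of the imprinted gene Mest on chromosome 6, rose. miR-335-3p, named after its values were seen, was at 5.19, 5.28 and 5.90 in skin and at 8.76, 8.47, 10.51 and 9.26 in SCC (3.80 ± 0.55, adjusted p = 0.000546). miR-335-5p rose by 2.22 ± 0.29 (adjusted p = 0.000272). miR-193a-3p rose by 2.53 ± 0.39 (adjusted p = 0.000708), with skin at 7.72 to 8.31 and SCC at 9.85 to 11.50. Entries with little described function also rose: miR-5105 by 4.82, miR-6538 by 2.93, miR-6240 by 2.80 and miR-5099 by 2.67 (adjusted p = 0.000189 to 0.00546). The first 3 are in the list of poorly annotated entries, which was drawn up from entries seen high in these data. The other member tested, miR-6406, was at -2.09 ± 0.88 (adjusted p = 0.0898), and was called lower without knockout skin replicate 1 (-2.95, adjusted p = 0.0358). At lower levels, miR-5117-3p was at the floor in every knockout skin library and at 7.61, 7.14, 7.96 and 6.65 in SCC (adjusted p = 4.2e-05). A change measured against the floor understates the difference. Of the called miRNAs, 8 were at the floor in all knockout skin. In all knockout SCC, 2 were: miR-653-5p (adjusted p = 0.000708) and miR-1a-1-5p (adjusted p = 0.0339). The miR-1a-1-5p call ended without skin replicate 1 or 3 or any 1 tumour (adjusted p = 0.0544 to 0.133).

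Of 9 tested members of the striated muscle list, 7 were lower and 1 higher, with a median of -2.80. miR-206-3p, specific to skeletal muscle, was at 10.71, 11.45 and 11.73 in skin and at 4.85, 4.01, 5.74 and 3.55 in SCC. All tumours were near the floor, and the change was -6.76 ± 0.55, a 108-fold lower level (adjusted p = 4.2e-05). miR-1a-3p, at 11.26 to 12.25 in skin, was at 7.59, 7.61, 7.13 and 5.61 in SCC (-4.74 ± 0.56, adjusted p = 0.00019). miR-133a-3p and miR-133b-3p were lower by less, at -2.80 ± 0.52 and -2.82 ± 0.41 (adjusted p = 0.00234 and 0.000546). The 1 higher member, miR-499-5p, was at the floor in all skin and at 6.52, 4.10, 6.97 and 3.64 in SCC. Its adjusted p of 0.04998 was the closest to the threshold among the miRNAs named here, and its call ended without any 1 of the 3 knockout skin libraries, of SCC replicates 1 and 3, or of the 5 wild-type libraries (adjusted p = 0.059 to 0.121). In bulk tissue, fewer cells of a type and less RNA per cell cannot be told apart, here or in the lists that follow.

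Both tested pigment cell miRNAs fell. miR-204-5p was at 12.59, 10.84 and 10.84 in skin and at 6.94, 6.29, 6.11 and 6.97 in SCC (-4.84 ± 0.50, adjusted p = 7.3e-05). miR-211-5p, which the melanocyte factor MITF induces with its host Trpm1, was at 8.39, 8.96 and 10.75 in skin and at 5.74, 5.46, 4.28 and 6.07 in SCC (-3.98 ± 0.87, adjusted p = 0.00478). Neither showed any overlap, and their sequences above differ at 1 position, outside the seed. miR-204 lies in an intron of the related gene Trpm3 on chromosome 19.

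Of 7 tested miRNAs of nerve and glia, 4 were lower and none higher, with a median of -1.58. miR-338-3p, from an intron of Aatk on chromosome 11, was at 11.05, 10.80 and 10.51 in skin and at 8.07, 7.93, 7.69 and 8.13 in SCC. Both groups were tight, and the change was -2.83 ± 0.26 (adjusted p = 4.2e-05). miR-9-5p fell by 2.44 ± 0.53 and miR-128-3p by 1.58 ± 0.34 (adjusted p = 0.00478 and 0.00457). miR-218-5p, encoded in introns of Slit genes, fell by 2.37 ± 0.36 (adjusted p = 0.000654).

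Stromal and blood lists moved by less or in part. Of 6 fibroblast arms, 3 were lower, with miR-199b-5p at -1.54 ± 0.29 (adjusted p = 0.00241), and 1 was lower without knockout skin replicate 1. The more abundant miR-199a-3p and miR-199b-3p, whose means were the same, were not called (0.03, adjusted p = 0.952). Nor was miR-214-3p (-0.40, adjusted p = 0.435). Of 4 smooth muscle arms, 2 were lower. miR-145a-3p was at -1.67 ± 0.39 (adjusted p = 0.00609), while the abundant miR-143-3p was at -1.18 ± 0.40 (adjusted p = 0.0416). In SCC replicates 2 and 3 miR-143-3p was at 18.49, the value of skin replicate 3, and its call ended without skin replicate 1 or 2, SCC replicate 1 or 4, wild-type skin replicate 1 or either wild-type SCC library (adjusted p = 0.0505 to 0.133). Of 3 red cell arms, miR-451a (2.76 ± 0.61, adjusted p = 0.0049) and miR-144-3p (2.46 ± 0.53, adjusted p = 0.00457) were higher. miR-451a was at 9.87 to 11.23 in skin and at 14.57, 13.27, 11.57 and 13.38 in SCC, with SCC replicate 3 close to skin. The third arm, miR-144-5p, was at 1.52 (adjusted p = 0.0585), and at 2.06 without that tumour (adjusted p = 0.00316). miR-486, also abundant in red cells, was counted in the striated muscle list, and its arms were not higher. miR-486-3p fell by 2.54 ± 0.39 (adjusted p = 0.000654), from 6.86 to 7.31 in skin to 3.81 to 5.43 in SCC. The abundant miR-486-5p was at 15.03 to 16.13 in skin and 13.69 to 16.06 in SCC, with overlap (-0.81 ± 0.51, adjusted p = 0.251). Without SCC replicate 1 it was called lower (-1.27, adjusted p = 0.0331). Of 4 leukocyte arms, 2 were higher, miR-223-3p (1.47 ± 0.42, adjusted p = 0.0192) and miR-142-3p (1.13 ± 0.39, adjusted p = 0.0431). Neither was called without knockout skin replicate 1 or 2. The miR-142-3p call also ended without skin replicate 3, SCC replicate 1, 2 or 4 or any 1 wild-type library (adjusted p = 0.0516 to 0.0885). SCC replicate 3, at 10.48, lay within the skin range of 10.08 to 10.80 for miR-142-3p. Of the 2 endothelial arms, miR-126-5p was called (0.61 ± 0.21, adjusted p = 0.0432), but not without any 1 of the skin libraries of either genotype or SCC replicate 3 or 4. No liver miRNA was above the floor in 2 libraries.

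The summed linear level of a marker list, given here on the log2 scale, follows its most abundant members. For striated muscle these are miR-133a-3p and miR-486-5p, so the sum moves less than the list's median. The pigment cell sum was 11.18 to 12.67 in knockout skin and 6.47 to 7.59 in SCC, and the striated muscle sum 16.62 to 17.31 and 14.72 to 16.29. The nerve and glia sum was 11.18 to 11.57 in skin and 8.82 to 9.39 in SCC. The red cell sum was higher in SCC, at 11.95 to 14.87 against 10.37 to 11.62. Sums overlapped between skin and SCC for leukocytes (14.26 to 14.62 and 13.96 to 15.91) and fibroblasts (16.43 to 16.90 and 16.18 to 16.95). The keratinocyte sum was the highest of these in every library, at 19.36 to 19.68 in skin and 19.93 to 20.25 in SCC. Its most abundant member was miR-27b-3p, at 18.49 to 18.75 in skin and 19.25 in every SCC library. The rank and rise of this sum thus rest in large part on miR-27b-3p, and not on miR-205 and miR-203 alone. The part of other cell types in the changes of single miRNAs was not tested.

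**Figure D3:**
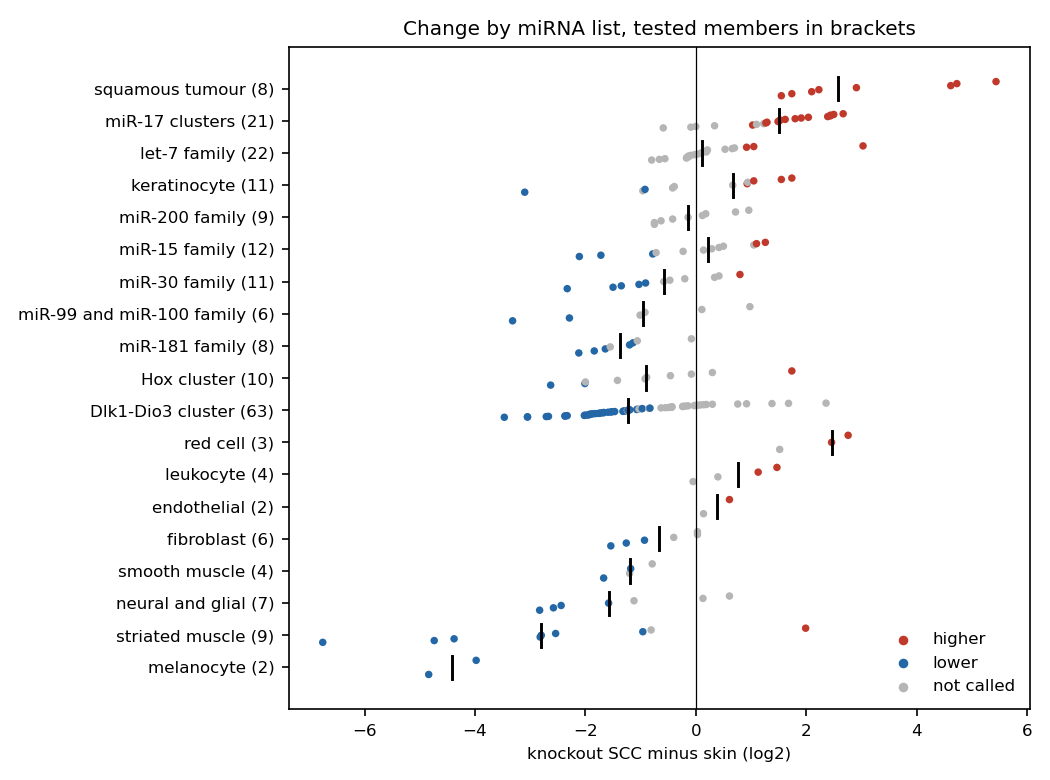
Change in knockout SCC (log2, horizontal axis) of the tested members of 19 miRNA lists. Each point is 1 miRNA, coloured by its call, and black bars are list medians. The squamous tumour median is 2.57 and the striated muscle median -2.80.

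Members of the keratinocyte list did not move as 1 group. Beside miR-205, miR-203 and miR-184, the list holds arms of miR-23b, miR-27b and miR-24. Its count and median therefore do not describe the first 3 alone. Of 11 arms, 4 were higher (both arms of miR-205, miR-23b-3p and miR-27b-5p) and 2 lower, with a median of 0.67. The miR-27b-5p call (1.05 ± 0.34, adjusted p = 0.0334) ended without any 1 of the skin libraries or SCC replicate 2 or 3 (adjusted p = 0.06 to 0.109). miR-203-3p, which represses p63 in differentiating keratinocytes, stayed abundant, at 17.23, 17.54 and 18.00 in skin and at 16.94, 16.51, 16.29 and 16.94 in SCC. All tumours lay below all skin libraries by a small margin (-0.92 ± 0.27, adjusted p = 0.0224), and the call ended without skin replicate 2 or 3 or SCC replicate 3 (adjusted p = 0.0529 to 0.101). miR-184-3p was at 9.13, 7.32 and 6.20 in skin and at 3.61 to 5.61 in SCC (-3.10 ± 0.69, adjusted p = 0.00514). Of 7 miRNAs linked to p63, 1 was higher and 3 lower. The lower ones were miR-203-3p, then miR-497-5p (-0.78 ± 0.25, adjusted p = 0.0324), and miR-30c-2-3p (-1.50 ± 0.43, adjusted p = 0.0185). The list was drawn up with results of these samples known, so its count is not independent evidence. Among the 7, 1 was lower without knockout skin replicate 1 and 0 without replicate 2.

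Of 6 tested arms of the miR-99 and miR-100 family, 2 were lower. miR-100-5p, which represses mTOR and IGF1R, was at 15.54, 15.13 and 15.08 in skin and at 12.53, 11.42, 12.31 and 11.45 in SCC (-3.32 ± 0.32, adjusted p = 4.3e-05). miR-99a-5p, which shares its seed, was at 14.07 to 14.74 in skin and at 13.08, 12.53, 11.40 and 11.67 in SCC (-2.29 ± 0.52, adjusted p = 0.00574). In both cases every tumour was below every skin library. miR-99b-5p has the same seed, and its groups overlapped (-0.92 ± 0.51, adjusted p = 0.191). miR-146a-5p, an NF-kB target that dampens innate signalling, fell by 2.51 ± 0.32 (adjusted p = 0.000272), from 13.55 to 13.99 in skin to 10.40 to 11.85 in SCC. Of 8 arms of the miR-181 family, 5 were lower and none higher, with miR-181b-5p at -1.84 ± 0.33 and miR-181a-5p at -1.20 ± 0.27 (adjusted p = 0.00187 and 0.00499), and 3 were lower without knockout skin replicate 3.

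miR-10b-5p, encoded between Hox genes of the HoxD cluster on chromosome 2, was the most abundant miRNA of all 3 knockout skin libraries, at 20. In SCC it was at 18.21, 18.21, 17.54 and 18.00 (-2.01 ± 0.19, adjusted p = 4.2e-05), a change that the fixed top value limits. Its minor arm, miR-10b-3p, was free of that limit and fell by 2.63 ± 0.33 (adjusted p = 0.000252). Of 10 Hox-encoded arms, these 2 were lower, a share near the 18.2% lower over all 544 tested miRNAs. miR-615-5p was higher (1.74, adjusted p = 0.0376), but not without any 1 of the skin libraries of either genotype or SCC replicates 1 to 3.

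The imprinted Dlk1-Dio3 domain of chromosome 12 held the largest number of decreases among the lists and was also the largest list. Over all 544, 18.2% were lower, and the striated muscle list had a larger share lower, at 7 of 9. Of the 63 tested Dlk1-Dio3 arms, 37 were lower and none higher, with a median of -1.23. Without knockout skin replicate 1, 23 were lower. Without SCC replicate 4, 2 were higher, and without either wild-type SCC library, 1 was. Counting rows with identical profiles once, 35 of 61 were lower. From 109585789 to 109595388, 10 of 14 arms were lower, and from 109709060 to 109747960, 21 of 38. Between these blocks, from 109611500 to 109618336, 1 of 4 was lower, and the median there was 0.52. miR-409-5p, within Mirg, was at 8.72, 8.26 and 8.59 in skin and at 4.46, 5.22, 5.06 and 5.50 in SCC (-3.47 ± 0.39, adjusted p = 0.000164). miR-379-5p was at 9.83, 9.26 and 9.52 in skin and at 6.10, 6.67, 7.07 and 7.63 in SCC (-2.67 ± 0.35, adjusted p = 0.000281). Neither miRNA showed overlap. The abundant miR-127-3p, antisense to the imprinted gene Rtl1, was at -1.31 ± 0.34 (adjusted p = 0.0124), with a call that ended without skin replicate 1 (adjusted p = 0.0648). The skin and SCC donors also differ in age, which cannot be told apart from tumour state here.

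Members of 1 seed family could move in opposite directions. Of 14 seeds with at least 3 tested miRNAs, 3 held both a higher and a lower member. With the seed GUAAACA, miR-30a-5p was at 17.72, 17.23 and 17.40 in skin and at 16.37, 16.29, 15.72 and 16.02 in SCC (-1.35 ± 0.25, adjusted p = 0.00204). miR-30e-5p, which differs from it at 1 position outside the seed, was at 14.19, 14.82 and 14.74 in skin and at 15.49, 15.28, 15.49 and 15.28 in SCC (0.80 ± 0.20, adjusted p = 0.0108). The minor arm miR-30a-3p fell with its partner, by 2.33 ± 0.30 (adjusted p = 0.000272). Neither pair of 5p groups overlapped, although the miR-30e-5p call ended without skin replicate 1 (adjusted p = 0.0534). With the seed AGCAGCA, known for repressing cyclins, miR-195a-5p fell by 1.72 ± 0.34 (adjusted p = 0.0031), from 12.73 to 13.38 in skin to 10.94 to 11.73 in SCC. miR-15b-5p, hosted by the chromosome condensation gene Smc4, was at 10.04 to 10.57 in skin and 11.02 to 11.85 in SCC (1.10 ± 0.31, adjusted p = 0.0182). Its call ended without skin replicate 1 or 2 (adjusted p = 0.0795 and 0.0513). With the seed AUUGCAC, miR-92b-3p was lower (-1.33 ± 0.46, adjusted p = 0.0426) beside the higher miR-92a-3p, miR-25-3p and miR-32-5p. The miR-92b-3p groups overlapped, and its call ended without any 1 of skin replicates 1 and 2, SCC replicates 1 to 3, the wild-type skin libraries and wild-type SCC replicate 2 (adjusted p = 0.0508 to 0.186).

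The 2 arms of a hairpin moved alike where both were called. Among 147 hairpins with both arms tested, neither was called for 66, both for 34, and only 1 arm for the rest. The sign of an uncalled arm could differ from that of its called partner, as in miR-341 and miR-212. Where both were called, the direction was the same in 33 of the 34, with the identical rows of miR-299a and miR-299b counted as 2. The exception was miR-30e, whose 5p arm is given above and whose other arm, miR-30e-3p, was lower (-0.91 ± 0.29, adjusted p = 0.0324), with a call that ended without skin replicate 1 or 2 or SCC replicate 1 or 2 (adjusted p = 0.06 to 0.122). For miR-98, a let-7 relative, the minor arm miR-98-3p rose by 3.03 ± 0.55 and the main arm miR-98-5p by 1.05 ± 0.26 (adjusted p = 0.00188 and 0.0104). Without skin replicate 1 the main arm was not called (adjusted p = 0.0545). Of the 22 let-7 family arms, 3 were higher and none lower, with a median of 0.10 against 0.05 over all tested. The share that was higher did not exceed the 16.0% over all 544. Median GC content was 52.2% in the 69 higher miRNAs with a sequence, 47.6% in the 85 lower and 47.8% in all 445, and a U at the first base was found in 34.8%, 44.7% and 38.9%.

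Knockout SCC replicate 2 stood apart in the miR-200 family, which represses ZEB factors and maintains epithelial identity. miR-200a-3p was at 12.82 to 13.34 in skin, at 13.55, 13.01 and 13.01 in SCC replicates 1, 3 and 4, and at 10.24 in SCC replicate 2. miR-141-3p, from the second cluster of the family on chromosome 6, was at 14.99 to 15.13 in skin, at 16.17, 15.45 and 15.23 in the same 3 tumours and at 11.73 in replicate 2. The same tumour was the lowest for miR-200b-3p (11.07), miR-429-3p (10.35) and miR-200c-3p (8.99), so both clusters were low in it. None of the 9 tested arms was called, with a median of -0.14. Without that tumour 4 were higher: miR-141-5p (1.75, adjusted p = 0.000774), miR-200c-5p (1.28, adjusted p = 0.00653), miR-429-3p (0.88, adjusted p = 0.0168) and miR-200b-3p (0.86, adjusted p = 0.0365).

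Some other miRNAs, chosen here after their values were seen, were lowest or highest in the same tumour. miR-375-3p was lowest there, at 5.09, with SCC replicates 1 and 4 at 7.52 and 9.01 and skin at 8.65 to 9.83. It did not single out that tumour, because SCC replicate 3, at 13.17, lay further from the others. Wild-type SCC replicate 1 was also low, at 5.80, and the other wild-type tumour was near knockout SCC replicate 1. miR-196a-5p was at 3.60 in knockout SCC replicate 2 and at 8.47 to 10.27 in the other knockout tumours, but knockout skin ranged from 6.48 to 10.44. In the other direction, miR-224-5p was at 10.54 in replicate 2 against 5.61 to 7.09 in the other tumours, and miR-222-3p at 12.38 against 10.69 to 11.35. Replicate 2 kept the tumour levels of miR-21a and miR-31 given above. Over all tested miRNAs, it lay over 1 log2 unit above all other tumours for 19 miRNAs and below them for 17, against 25 and 17 in replicate 3.

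**Figure D4:**
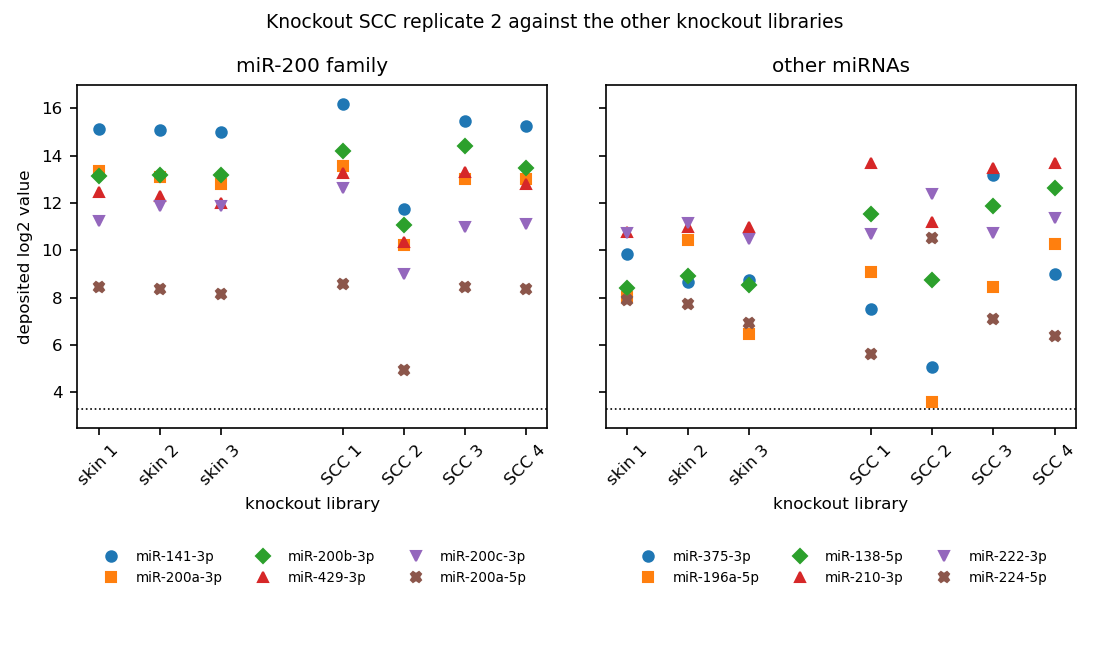
Deposited log2 value (vertical axis) in the 7 knockout libraries of 6 miR-200 family members (left) and 6 other miRNAs (right). Each symbol is 1 miRNA in 1 library, and the dotted line is the floor. All 6 miR-200 members are lowest in SCC replicate 2, where miR-200a-3p is at 10.24.

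To ask whether the tumour change in knockout mice differed from that in wild-type mice, the difference of the 2 changes was tested. In wild-type mice 48 of the 544 were higher (8.82%) and 51 lower (9.38%) in SCC, 18.2% in all. For the difference no miRNA passed (0% of 544), 41 had an unadjusted p under 0.05 in limma, and the smallest adjusted p was 0.173. That was miR-20b-5p, at the floor in all knockout libraries and at 4.32 and 5.04 in the wild-type tumours (difference -1.36, 95% interval -1.95 to -0.77). With 2 wild-type tumours the intervals are wide. For miR-31-5p the change was 4.73 in knockout and 3.17 in wild-type mice, with an interval of the difference from -1.41 to 4.54. For miR-206-3p the changes were -6.76 and -5.65 (-3.0 to 0.79), and for miR-100-5p -3.32 and -2.96 (-1.44 to 0.73). miR-204-5p changed by -4.84 and -3.03, with an unadjusted interval from -3.51 to -0.12 and an adjusted p of 0.56. For miR-210-3p the changes were 2.10 and 0.85 (adjusted p = 0.747), and without knockout SCC replicate 2 their difference was called (1.85, adjusted p = 0.0412). Without wild-type SCC replicate 2, 10 differences were called, all lower in knockout mice.

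**Figure D5:**
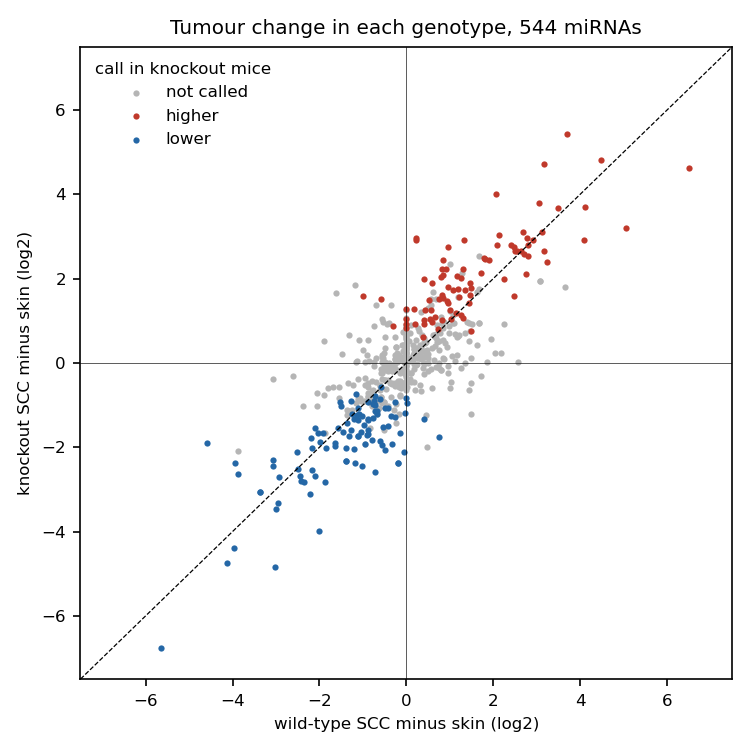
Tumour change in wild-type mice (log2, horizontal axis) against that in knockout mice (log2, vertical axis) for 544 miRNAs, coloured by the call in knockout mice. The dashed line marks equal change, and no distance from it passed the test.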

How the data were processed

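The authors deposited 1 table of log2 values for 1251 miRNA rows in 12 libraries; each column matched 1 sample title. The submitters' processing notes name mm10; the sources used here give no aligner, counter or miRBase release. Per the labels' protocols, total RNA came from frozen tissue. By their values, the deposited log2 columns were quantile normalized, with low values set to a floor of 3.32. Depth is therefore unknown.

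The 544 rows that exceeded the floor in 2 or more libraries were tested with limma 3.58.1 in R 4.3.3, with 1 mean for each of 4 groups, trended and robust moderation and 8 residual degrees of freedom. Adjustment was over all 544. Replicates are numbered in accession order. The labels do not say that each sample is a separate mouse, so p-values measure the spread between these samples.

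The comparison, miRNA lists and tests were chosen with earlier results of these data known. Named miRNAs were drawn from up to 12 called per direction with the largest change in the upper 40% by level, their other arms and seed mates, up to 4 per list by p, and up to 6 per direction at the floor in 1 group. Any others, such as the arms of miR-335, were chosen after their values were seen. Alternatives changed the floor filter, scaling, moderation, pseudocount and libraries. Wild-type libraries left out of the knockout comparison, and identical rows merged, were added after seeing the data. Hairpin positions and sequences are from RefSeq on GRCm38.p6, and gene overlaps from GENCODE.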

Additional observations from a re-analysis of the deposited data

Results flagged for a closer look

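Among 4 knockout tumours, 1 library lay far from the other 3 in 7 of the 88 named miRNAs examined. Chance alone would flag about 1 group in 20, or 4.4 of 88, if the miRNAs were independent and named blind to their values. Some were named after their values were seen, and several flagged arms belong to the miR-200 family. The 7 flags therefore cannot be tested against 4.4. SCC replicate 2 was the low one in 5: miR-200a-5p at 4.96 (others 8.35 to 8.58), miR-200a-3p at 10.24 (13.01 to 13.55), miR-429-3p at 10.35 (12.82 to 13.30), miR-141-5p at 5.50 (9.48 to 9.78) and miR-210-3p at 11.20 (13.48 to 13.70). In SCC replicate 3, miR-142-3p was at 10.48 (11.95 to 12.22), and in SCC replicate 4, miR-6406 was at 5.22 (7.32 to 7.69).

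Outside the test, 46 miRNAs were above the floor in 1 knockout tumour and in no other library, 33 of them in SCC replicate 3, which also had the most miRNAs above the floor. The same count was 5 over the 3 knockout skin libraries.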

How the results depend on the processing

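The counts of 87 higher and 99 lower stayed within 1.5 times under every alternative run. Leaving out 1 library gave 58 to 96 higher and 71 to 102 lower, and the lowest counts were without knockout skin replicate 1, when 56 of the 58 and 66 of the 71 were also called with it. Other settings gave 72 to 98 higher and 83 to 101 lower, with the fewest when the knockout libraries were fitted alone. That fit ended 8 named calls (limma, adjusted p = 0.0688 to 0.109). These were miR-27b-5p, miR-30e-3p, miR-92b-3p, miR-126-5p, miR-142-3p, miR-143-3p, miR-499-5p and miR-615-5p. Some of them also ended under other floor filters, scalings or weights. For the difference between genotypes, 1 call was higher without knockout SCC replicate 2, and 10 were lower without wild-type SCC replicate 2, where both counts with all libraries were 0. The cause was not tested. Of 73 called miRNAs named in the text, 55 kept the call and direction under every alternative. Among named miRNAs, changes of sign came in 5 of the miR-200 family and in miR-18b-5p (-0.19 to 0.11, positive without knockout skin replicate 3), none of which had a call. With 1 library left out, miR-200a-5p ranged from -1.08 to 0.13, miR-200a-3p from -0.99 to 0.11 and miR-141-3p from -0.93 to 0.55, positive without SCC replicate 2. miR-200b-3p ranged from -0.26 to 0.86 and miR-429-3p from -0.11 to 0.88, negative without SCC replicate 1 (-0.18 and -0.10) or 3. No paired analysis was possible because the labels give no number that pairs samples across groups. Since the floor hides low values, absence of a miRNA at the floor cannot be shown.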
